A study of Mus musculus with 17 samples.

Results

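The mRNAs of the cytosolic ribosomal proteins were examined in plasma cell-free RNA (cfRNA) of mice. Members were the gene rows whose name begins with Rpl or Rps followed by a digit, together with Rplp0, Rplp1, Rplp2 and Rpsa. Rows of pseudogenes named -ps, the Rps6k kinases and 7 ribosomal protein-like genes (Rpl3l, Rpl7l1, Rpl10l, Rpl22l1, Rpl39l, Rps27l and Rps4l) were left out. The rule gave 85 of 49585 gene rows, 49 with a name of the large subunit and 36 with a name of the small subunit. It also took in 5 rows annotated as pseudogenes (Rpl37rt, Rpl6l, Rps12l1, Rps3a2 and Rps3a3) and Rps19bp1, which encodes a binding partner of Rps19 and no ribosomal protein.

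All mice were wild-type C57BL/6J, 13 weeks old, and all samples were plasma. The animals came from the MHU-1 mission to the International Space Station. The microgravity group (MG) comprised 6 libraries. The artificial 1-G group (AG) comprised 6 libraries of mice kept in flight on a rotating platform, so that they shared the flight with MG but not the weightlessness. The ground control group (GC) comprised 5 libraries of mice of the same background that did not fly. Each library is 1 mouse. Because the RNA was degraded, a small RNA kit was used, so that the libraries hold short RNAs together with pieces of longer ones.

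Ribosomal proteins are the protein part of the ribosome, each present once per ribosome in most cases, and their mRNAs are among the most abundant of growing cells. The mRNAs start with a C and a run of pyrimidines, the terminal oligopyrimidine (TOP) motif, through which the mTOR pathway controls their translation. Many of these genes carry small nucleolar RNA (snoRNA) genes in their introns, since snoRNAs guide the chemical modification of ribosomal RNA and are cut out of spliced introns in vertebrates. Among blood cells, reticulocytes and platelets lack a nucleus but still hold ribosomes and ribosomal protein mRNAs.

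The count column of the deposited files, which holds reads per gene without normalisation, summed to between 84657 and 277682 per library. Of these counts, 70.6% to 91.7% belonged to Lars2, Polr2m, Rn18s-rs5 and Tmem38b, 4 genes that each held above 5% of the counts of at least 1 library. The counts outside these 4 genes made up 8.29% to 13.1% of a library in AG, 16.5% to 29.4% in MG and 16.9% to 23.1% in GC. Scaling is therefore given below in 3 ways, as a share of all counts, as a share of the counts outside the 4 genes, and as TMM-scaled CPM. The last scales counts by TMM factors, a factor per library that assumes most genes are equal. The sum of the deposited RPKM values, which are scaled by gene length and mapped reads, is given as well. The TMM factor ranged from 0.482 to 0.907 in AG, from 0.577 to 1.92 in MG and from 0.525 to 1.74 in GC, and the libraries GC_4 and MG_6 had the lowest factors of their groups. In the names of the libraries, the number is the replicate number of the label.

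Ribosomal protein genes took 15411 reads over the 17 libraries. Reads were found for 80 of the 85 members, and 32 members had reads in every library. The median member had 65 reads, against 4 for the 12605 genes with any read. No read was counted for Rpl35, Rps12, Rps12l1, Rps3a2 and Rps3a3. By comparison, 56 of the 78 mitochondrial ribosomal protein genes had reads, 322 in all, and the excluded -ps rows held 92. The 7 excluded ribosomal protein-like genes held 18.

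The reads were unevenly spread over the members. Among the members named here, Rpl5 had 1685 reads, Rpl13 1436, Rps3 1226, Rpl32 1202, Rpl21 1045, Rpl7a 701 and Rpl4 645. These 7 genes held 51.5% of all ribosomal protein reads, and the next of the named members, Rps2, had 339. The proteins of these 7 genes lie in different places of the ribosome: Rpl5 carries 5S ribosomal RNA, Rps3 lines the entry of the mRNA channel, and Rpl4 reaches into the exit tunnel. In GENCODE M21 each of the 7 genes contains at least 1 snoRNA gene on the same strand that lies within an exon of an annotated transcript of the host.

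The snoRNA genes that lie in exons of these 7 members are printed here because the files credit no read to them and yet their hosts hold most of the reads. The coordinates are of GRCm38, the assembly called mm10, and the sequences are the transcripts of GENCODE M21, 5′ to 3′. Of the 8 sequences, 7 are of the C/D class, which guides ribose methylation, and their capitals mark the first TGATGN (box C) within the first 26 bases and the last CTGA (box D) within the last 26. Snora7a is of the H/ACA class, which guides the change of uridine to pseudouridine, and its capitals mark the ACA before the last 3 bases. Only the printed strand was searched.
Snord21, in Rpl5, chr5:107904555-107904648, plus strand: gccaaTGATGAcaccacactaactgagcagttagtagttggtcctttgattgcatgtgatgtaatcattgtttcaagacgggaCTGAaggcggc
Snord68, in Rpl13, chr8:123103038-123103123, plus strand: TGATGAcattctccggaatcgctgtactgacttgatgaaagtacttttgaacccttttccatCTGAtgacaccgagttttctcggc
Snord15b, in Rps3, chr7:99479563-99479707, minus strand: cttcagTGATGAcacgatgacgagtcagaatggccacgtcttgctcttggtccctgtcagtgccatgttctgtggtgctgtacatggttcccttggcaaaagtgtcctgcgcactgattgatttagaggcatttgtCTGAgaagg
Snora7a, in Rpl32, chr6:115807975-115808114, minus strand: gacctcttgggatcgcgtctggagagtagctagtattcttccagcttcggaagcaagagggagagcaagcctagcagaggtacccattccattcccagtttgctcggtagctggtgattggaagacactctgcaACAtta
Gm25091, in Rpl21, chr5:146834834-146834904, plus strand: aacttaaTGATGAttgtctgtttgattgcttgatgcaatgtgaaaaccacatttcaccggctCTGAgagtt
Gm22879, in Rpl7a, chr2:26912218-26912291, plus strand: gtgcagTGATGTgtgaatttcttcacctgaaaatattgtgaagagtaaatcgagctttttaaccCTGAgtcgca
Gm24134, in Rpl7a, chr2:26912530-26912600, plus strand: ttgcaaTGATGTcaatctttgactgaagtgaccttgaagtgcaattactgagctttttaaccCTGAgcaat
Snord16a, in Rpl4, chr9:64175423-64175521, plus strand: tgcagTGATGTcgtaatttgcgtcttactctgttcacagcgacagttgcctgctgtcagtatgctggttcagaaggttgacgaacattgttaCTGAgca

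Members with and without a snoRNA gene differed in reads over the whole group. In all, 30 of the 85 members contain 58 snoRNA genes, and 22 of these members have at least 1 of them within an exon. The 22 members had a median of 268.5 reads and 74.0% of all ribosomal protein reads. The 8 members with snoRNA genes in introns only had a median of 64.5 reads, and the 55 members without one a median of 48. Per gene length the order of the medians was the same, with a mean RPKM (reads scaled by gene length and mapped reads) of 1.94, 0.638 and 0.509.

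The same order was found in other protein-coding genes. The median was 86.5 reads for the 22 with a snoRNA gene in an exon, 5 for the 214 with one in introns only and 1 for the 20993 without one. Exceptions existed among the ribosomal protein genes. Rps12 had no read although it holds 3 snoRNA genes, and Rps29 had 282 reads and Rpl41 216 without holding any.

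All 58 snoRNA rows within ribosomal protein genes read 0 in the count column of every library, as did all 1455 snoRNA rows of the files. The RPKM column was above 0 for 27 of the 1455, none of them within a member, so that the count column is not a full record of snoRNA rows. The files hold reads per gene and no positions. Reads of the mRNA of a member and reads of a snoRNA inside it can therefore not be told apart here for the 30 members that contain one, and values of these members are given below beside those of the 55 others.

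**Figure D1:**
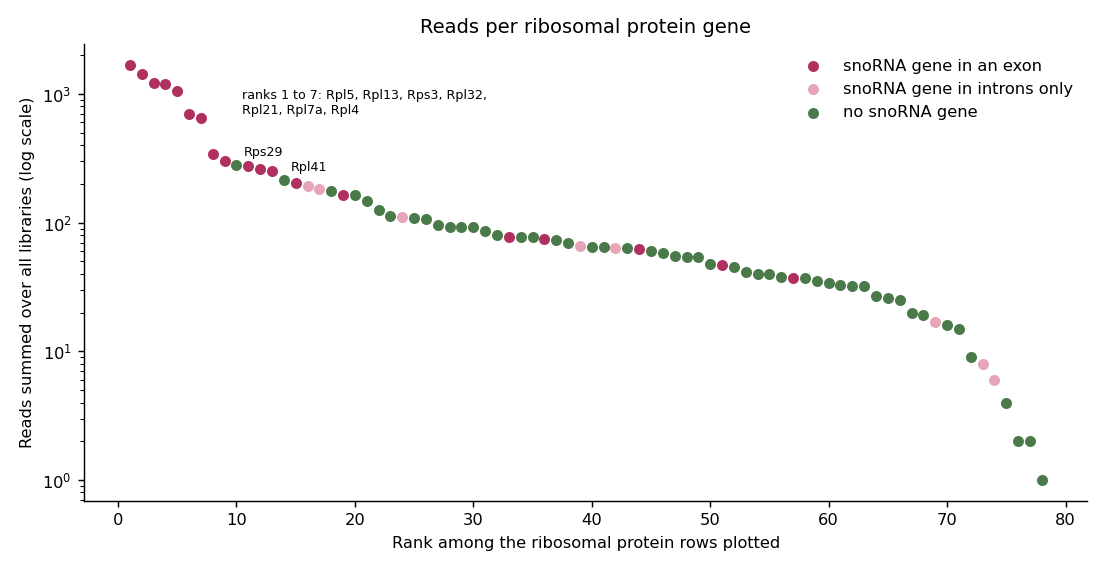
Reads summed over the 17 libraries (vertical axis, log scale) for 78 ribosomal protein rows with reads, ranked from most to fewest. Colours separate genes with a snoRNA gene in an exon, in introns only, and without one; the first 7 ranks all belong to genes with one in an exon, and 16 of the first 20 contain a snoRNA gene.

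Per gene length, Rpl32 had the highest level, with a mean RPKM of 18.3 over the 17 libraries. Other high levels were those of Rpl13 with 7.99, Rps29 with 6.60, Rpl5 with 6.30, Rpl7a with 5.84, Rplp1 with 4.86, Rpl21 with 4.71, Rpl4 with 4.70, Rps3 with 3.95, Rps23 with 3.18 and Rpl41 with 3.10. Of these 11 genes, Rps29, Rplp1, Rps23 and Rpl41 contain no snoRNA gene. For most members the length is that of all annotated exons together, 4483 bases in Rps3 against 963 in Rpl32. The order of these levels, and the class medians per gene length, therefore depend on the annotation. Rps29 is a short zinc-binding protein of the small subunit, Rplp1 belongs to the stalk of the large subunit, Rps23 lies at the decoding centre and Rpl41 is the shortest protein of the ribosome.

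At the annotated transcript start, a C followed by 4 bases that are each C or T was found in 14 of the 61 members with a start in the RefSeq table (23.0%) and in 3.01% of its 27025 genes. Whether the annotated starts are exact to the base was not tested. Windows of 4 of the 14 are printed as examples of a TOP start, and they do not stand for the 61 members. They show 10 bases before the start and the 5 bases of the motif in capitals (GRCm38.p6).
Rplp2, chr7:141447641-141447665, plus strand: cagcgtcttcCTTTCgccgccggac
Rpl14, chr9:120571507-120571531, plus strand: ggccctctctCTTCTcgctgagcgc
Rps6, chr4:86857353-86857377, minus strand: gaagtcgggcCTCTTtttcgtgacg
Rps18, chr17:33955651-33955675, minus strand: cacttccgctCTCTCttccacagga

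The share of ribosomal protein reads that came from snoRNA-containing members varied widely between libraries of the same group. It was 56.5% to 91.8% in AG (median 66.6%), 58.9% to 90.0% in MG (median 75.6%) and 50.9% to 90.3% in GC (median 78.6%). The groups overlapped over nearly their whole range. The highest shares were those of AG_2, MG_6 and GC_4. In contrast, the share of reads from large-subunit genes stayed within 55.6% and 71.7% in all libraries, with a mean of 65.9% ± 3.75 (SD, n = 6) in AG, 64.1% ± 4.03 (SD, n = 6) in MG and 65.2% ± 5.91 (SD, n = 5) in GC. The ranking of members by reads was compared between libraries. Spearman's rho of 2 libraries was 0.530 to 0.835 within groups (median 0.713) and 0.569 to 0.844 between groups (median 0.709), over 40 and 96 pairs that share the gene lengths and the snoRNA content of the members.

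**Figure D2:**
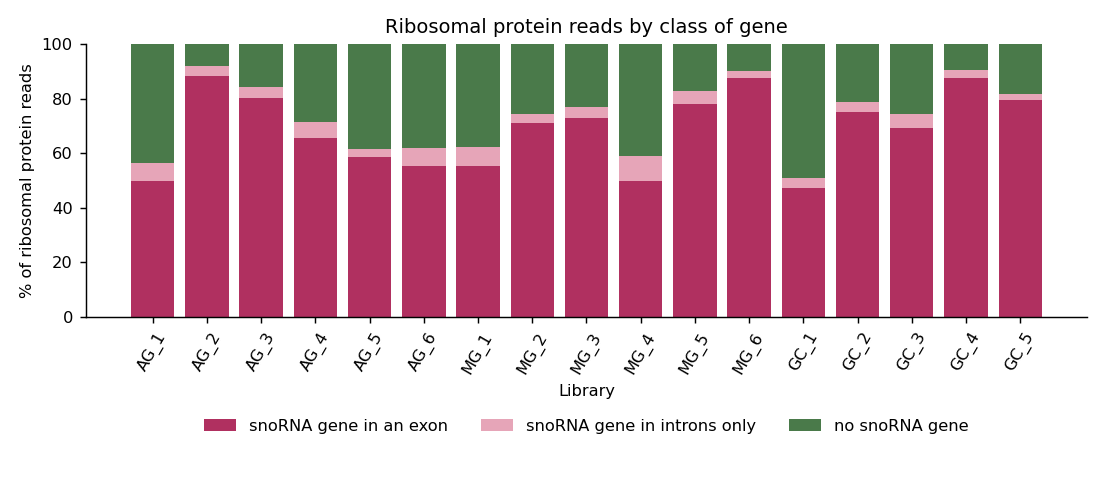
Share of the ribosomal protein reads of each library (vertical axis, %) that came from genes with a snoRNA gene in an exon, in introns only, or without one. Genes without one are drawn on top, and genes that contain one took between 50.9% and 91.8% of the reads of a library, with wide and overlapping ranges in the 3 groups.

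The question of whether ribosomal protein cfRNA differed with gravity or flight was first put to the sum over all 85 members. As a share of all counts, the sum was 0.218% to 0.437% in AG (median 0.285%) and 0.562% to 1.15% in MG (median 0.684%). In GC it was 0.399%, 0.714%, 0.740%, 0.814% and 0.681% in libraries 1 to 5. All 6 MG libraries lay above all 6 AG libraries, and 4 of 5 GC libraries did so too. The log2 ratio of the group means was 1.29 for MG against AG, 0.18 for MG against GC and -1.11 for AG against GC. The summed RPKM was 41.3 to 130 in AG, 53.1 to 213 in MG and 145 to 205 in GC. All AG libraries lay below all GC libraries on it, and the log2 ratios were 0.79, -0.14 and -0.92 in the same order.

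Outside the 4 dominant genes the sums of the groups overlapped. There the sum was 2.53% to 3.79% in AG, with a mean of 3.02% ± 0.470 (SD, n = 6), and 2.55% to 3.92% in MG, with a mean of 3.28% ± 0.512 (SD, n = 6). In GC it spanned 1.73% to 4.83%, with a mean of 3.40% ± 1.13 (SD, n = 5). The log2 ratios were 0.12, -0.05 and -0.17 in the same order. Over all 272 genes of the test without composition factors, 90.4% were also fitted higher in MG than in AG.

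On the TMM scale the sum was 4853 ± 686 CPM (SD, n = 6) in AG, 6580 ± 3307 (SD, n = 6) in MG and 6810 ± 5260 (SD, n = 5) in GC. The log2 ratios were 0.44 for MG against AG, -0.05 for MG against GC and -0.49 for AG against GC. MG_6, at 12862, and GC_4, at 15942, stood far above the other libraries, which spanned 2467 to 7128. Without MG_6 the ratio of MG to AG was 0.13, and without GC_4 the ratio of AG to GC was 0.10 and that of MG to GC 0.54 on the log2 scale. Fewer cells that shed these RNAs and less RNA from each cell cannot be told apart in such sums.

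**Figure D3:**
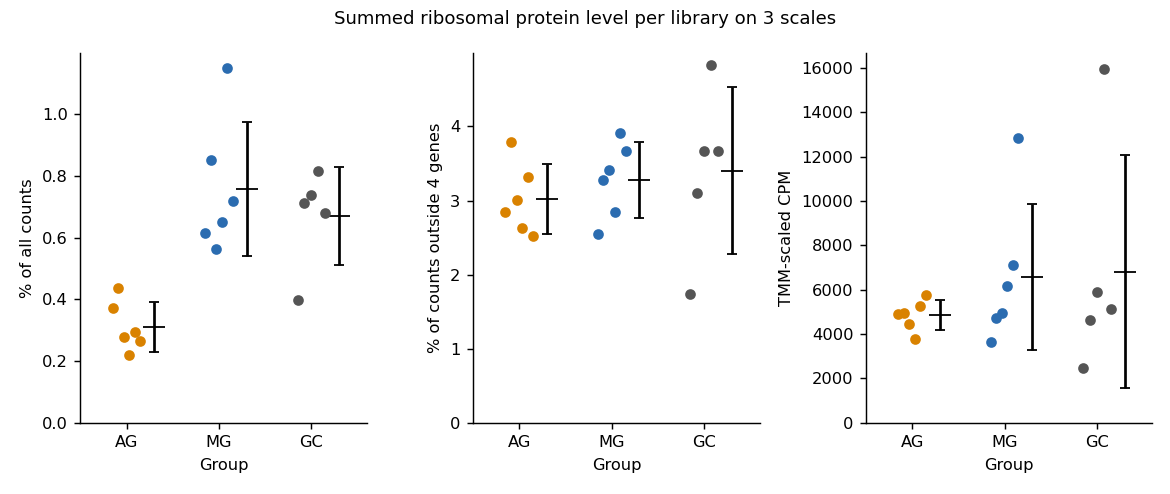
Sum over the 85 ribosomal protein rows in each library as % of all counts (left), % of the counts outside 4 dominant genes (middle) and TMM-scaled CPM (right); points are libraries, and the line with bars is the mean with its SD. AG lies below MG at left, the groups overlap in the middle, and MG_6 and GC_4 stand apart at right.

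The snoRNA-containing members held 90.0% of the ribosomal protein reads of MG_6 and 90.3% of those of GC_4. As a share of counts outside the 4 genes, the sum of MG_6 was 3.67%, below the 3.92% of MG_5. The part of the low TMM factors in the high sums of MG_6 and GC_4 was not tested. On the TMM scale, all 7 of the named members with most reads were highest in MG_6 among MG libraries and in GC_4 among GC libraries. As a share of counts outside the 4 genes, GC_4 was still highest of GC in 6 of the 7, and MG_6 highest of MG in 2 of the 7. The 30 snoRNA-containing members summed to 3426 ± 681 CPM (SD, n = 6) in AG, 5117 ± 3371 (SD, n = 6) in MG and 5571 ± 5089 (SD, n = 5) in GC. The 55 others summed to 1427 ± 794, 1464 ± 529 and 1239 ± 286 CPM. The log2 ratios of the 55 were 0.04 for MG against AG, 0.24 for MG against GC and 0.20 for AG against GC. Without single libraries they ran from -0.19 (without MG_4) to 0.20 (without AG_6), from 0.01 (without MG_4) to 0.33 (without GC_4) and from 0.04 (without AG_6) to 0.40 (without AG_2). Those of the snoRNA-containing members were 0.58, -0.12 and -0.70 in the same order. Without GC_4 the latter 2 were 0.60 and 0.03, and without MG_6 the former 2 were 0.16 and -0.54. None of these differences in sums was tested.

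Single genes were compared in edgeR's quasi-likelihood fit over the 272 genes with enough reads, of which 24 were ribosomal protein genes. The other 61 members had too few reads for the filter. Of the 24, 17 contain a snoRNA gene and 7 do not. Adjusted p-values (Benjamini-Hochberg) are over all 272 genes. The AG libraries are part of 2 comparisons, as are those of MG and of GC, so the 3 comparisons are not independent.

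For MG against AG, which isolates gravity within flight, no ribosomal protein gene passed an adjusted p of 0.05 (0 of 272 genes did, 0%), and 1 of the 24 had an unadjusted p under 0.05. DESeq2 called 0 of 80 members at the adjusted threshold (0.00794% of its 12592 genes passed) and 3 at the unadjusted one (0.627% of its genes). The typical gene of that table had far fewer reads than the typical member, so these shares are not alike in depth. The study called a gene where its fold change was over 1.5 and its unadjusted p under 0.05, and by this criterion 1 of 24 members was called, against 13.2% of all 272 genes in either direction and 4.78% as higher. That gene was Rpl37a, a zinc-finger protein of the large subunit whose gene holds no snoRNA. Its fitted log2 fold change was 1.18 ± 0.53 (SE), with an unadjusted p of 0.0356 and an adjusted p of 0.333, and the criterion was no longer met without AG_2, AG_3, AG_4, AG_6 or MG_6, each left out alone (0.95 to 1.13 on the log2 scale). Without MG_1 or MG_2 the gene fell below the filter and was not tested. No AG library held over 4 reads of Rpl37a, and it passed the filter only through libraries of MG and GC. The call therefore leans on that selection.

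Rpl37a was found at 5.77 to 35.0 CPM in AG (median 13.3) and at 24.6 to 48.1 CPM in MG (median 39.8). In GC it stood at 51.1, 18.5, 55.9, 20.1 and 50.1 CPM in libraries 1 to 5. The AG libraries were mostly low and overlapped with the lower part of MG, and the GC libraries fell into a low pair and a high trio. It had 86 reads in all, 1 to 12 per library.

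The median log2 fold change of the 24 members between MG and AG was 0.43, against 0.17 over the 272 genes. It was positive for 20 of them, as it was for 64.7% of the 272 genes. The 17 snoRNA-containing members had a median of 0.47, which ran from 0.29 (without MG_6) to 0.68 (without AG_2). The 7 others had 0.11, which ran from -0.14 (without AG_2) to 0.45 (without AG_1), so that its sign turned on single libraries. Without MG_6 the median of the members was 0.22, against 0.17 over the 271 genes then tested. Rplp0, the protein that anchors the stalk, was at the other end with -0.85 ± 0.55 (SE). Without composition factors (library totals only), 6 of the 24 members passed the adjusted threshold, as did 58 of the 272 genes, and all 24 were higher in MG.

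Among the 24 members, Rpl7a had the largest fitted difference between MG and AG, 1.35 ± 0.67 (SE), with an unadjusted p of 0.054 and an adjusted p of 0.372. Without MG_6 it was 0.38. With at least 5 reads it had 1.35 ± 0.58 (SE) and an unadjusted p of 0.0195, which met the criterion, and with the replicate number as a block it had 0.63. It encodes a large-subunit protein and holds 3 snoRNA genes. Its level was 73.0 to 248 CPM in AG (median 155) and 41.6 to 1388 in MG (median 259), and MG_6 alone held the 1388. In GC it was 43.8, 208, 174, 833 and 192 CPM. The lowest MG library lay below every AG library.

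For MG against GC, which compares flight in microgravity with the ground, 0 of the 24 members passed the adjusted threshold (0% of the 272 genes did), 1 had an unadjusted p under 0.05, and DESeq2 called 0 and 2 of 80 (0% and 0.635% of its genes). The criterion of the study called 1 of 24 members, against 4.41% of all genes in either direction and 3.68% as higher. This was Rps3a1, a small-subunit protein whose gene has snoRNA genes in introns only, with a log2 fold change of 1.37 ± 0.64 (SE), an unadjusted p of 0.0436 and an adjusted p of 0.989. Leaving out any 1 of MG_4, MG_5, MG_6, GC_1, GC_2 and GC_5 ended the call (1.01 to 1.29). Rps3a1 was at 22.8 to 235 CPM in MG (median 103) and at 21.9, 33.4, 68.3, 80.3 and 12.5 CPM in GC. AG spanned 18.1 to 166 CPM (median 71.0). The MG range contained all but 2 of the GC values.

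The median log2 fold change between MG and GC was 0.04 over the 24 members and -0.0034 over the 272 genes, with 13 members positive and 11 negative. Without MG_6 the members' median was -0.34. Rps24, which is needed to process the precursor of 18S ribosomal RNA, had 0.81 ± 0.51 (SE). Its level was 32.1 to 94.3 CPM in MG and 14.6, 55.6, 24.8, 40.1 and 41.7 in GC, and neither this nor Rplp0 (-0.69 ± 0.56, SE) passed the test.

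For AG against GC, which compares flight at 1 G with the ground, 0 of the 24 members passed the adjusted threshold, as against 4 of the 272 genes (1.47%). An unadjusted p under 0.05 was found for 3 members, and DESeq2 called 0 and 5 of 80 (0.0238% and 0.786% of its genes). The criterion of the study was met by 3 of 24, all lower in AG, where 11.8% of all genes met it in either direction and 5.51% as lower. They were Rpl5, Rps3 and Rpl37a, and each had an adjusted p of 0.395.

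Rpl5, which with Rpl11 brings 5S ribosomal RNA into the large subunit and can bind Mdm2, was at 114 to 555 CPM in AG (median 382). In GC it was at 87.6, 745, 522, 2217 and 998 CPM. The GC libraries held both the lowest and the highest values, with AG in between. The log2 fold change was -1.31 ± 0.58 (SE) and ranged from -1.56 to -0.68 when single libraries were left out, the latter without GC_4. The criterion was not met without AG_1, AG_4, AG_6, GC_4 or GC_5. In MG it was at 213 to 1364 CPM (median 520).

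Rps3, a small-subunit protein also known for a part in DNA repair, was at 109 to 398 CPM in AG (median 280) and at 161, 285, 571, 1996 and 472 CPM in GC. In MG it was at 114 to 1436 CPM (median 332). Of the GC libraries, 3 lay above all AG libraries. The log2 fold change of AG against GC was -1.41 ± 0.63 (SE), and leaving out GC_4 brought it to -0.51. The criterion was not met without GC_4, AG_1 or AG_5 (-1.26 and -1.27 for these 2 AG libraries).

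Rpl37a was also lower in AG than in GC by this criterion, with a log2 fold change of -1.20 ± 0.54 (SE), but not without AG_2, AG_3, AG_4, AG_6, GC_1, GC_3 or GC_5 (-1.16 to -0.97). Unlike the former 2 genes it holds no snoRNA, and GC_4 was among its low GC libraries. It had passed the filter only through libraries outside AG, so this call leans on that selection too.

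**Figure D4:**
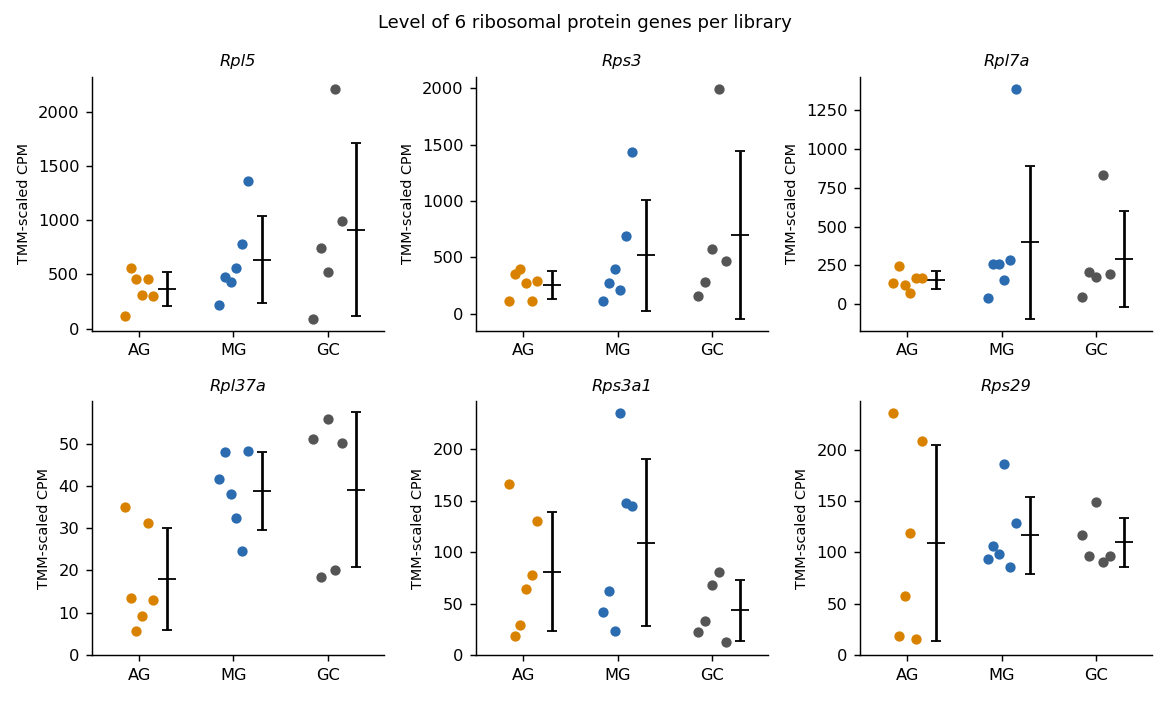
TMM-scaled CPM of Rpl5, Rps3, Rpl7a, Rpl37a, Rps3a1 and Rps29 in each library by group; points are libraries, and the line with bars is the mean with its SD. For Rpl5, Rps3 and Rpl7a, MG_6 and GC_4 are the highest points, while Rps29 shows overlapping groups around 110 CPM.

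The median log2 fold change between AG and GC was -0.55 over the 24 members, against -0.21 over the 272 genes, and 17 members were negative. The 17 snoRNA-containing members had a median of -0.71, with 2 positive, and the 7 others had 0.22, with 5 positive. This split rested on GC_4: without it the 17 had a median of 0.03, with 9 positive, and the 9 others then tested had 0.22, with 6 positive. The median of the others ran from -0.21 without AG_1 to 0.48 without AG_2. Without GC_4, when 26 members of 309 genes passed the filter, the members' median was 0.03 for AG against GC and 0.58 for MG against GC, against -0.10 and 0.04 over the 309 genes. Rps29 was at 15.6 to 236 CPM in AG, 86.1 to 187 in MG and 90.3 to 149 in GC.

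**Figure D5:**
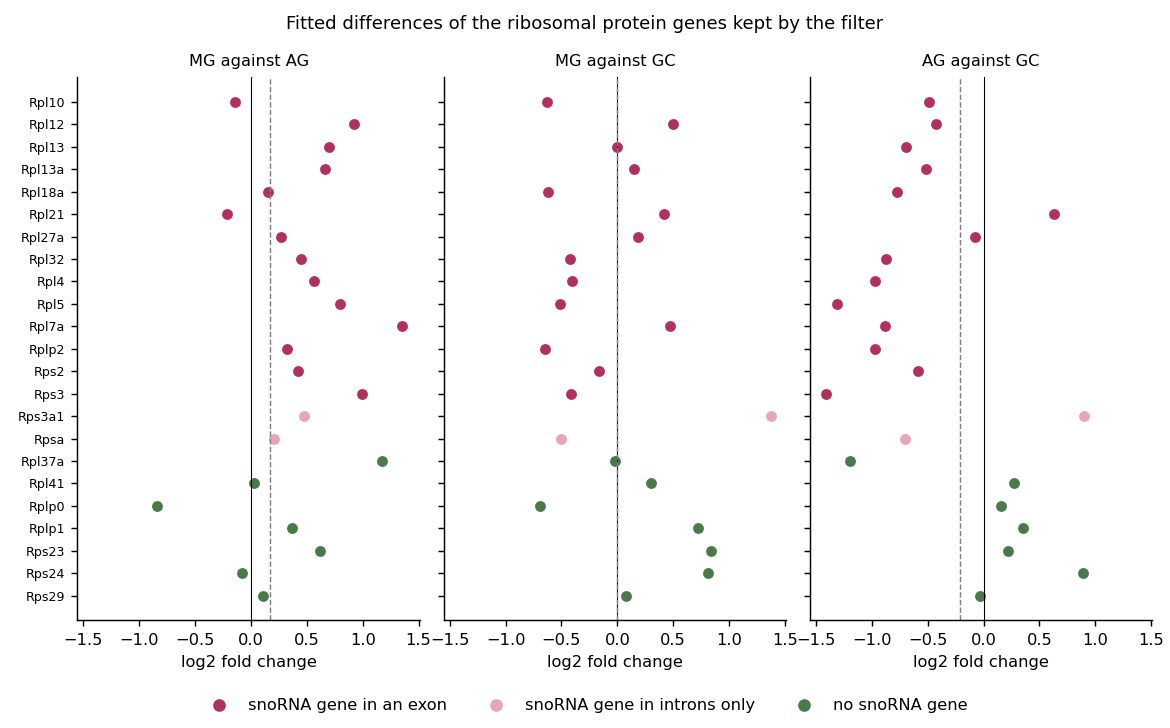
Fitted log2 fold change (horizontal axis) of the ribosomal protein genes kept by the filter, all but 1 of the 24, in the 3 comparisons; the solid line is 0, the dashed line the median of the 272 genes, and colours give the snoRNA class. No gene passed the adjusted threshold. In AG against GC, all but 2 of the snoRNA-containing genes drawn lie left of 0, but without GC_4, 9 of the 17 tested were above 0.

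The 24 members followed their roles as follows. In the stalk of the large subunit, which recruits translation factors, Rpl12 forms the base, Rplp0 the anchor, and Rplp1 and Rplp2 the flexible arms. All 4 genes were tested and 0 met the criterion in any comparison of this fit. Between MG and AG, Rpl12 met it in 5 of 22 alternatives, Rplp1 in 2 of 22, Rplp2 in 1 of 22 and Rplp0 in 1 of 21. Between MG and AG the log2 fold changes were 0.92 for Rpl12, -0.85 for Rplp0, 0.33 for Rplp2 and 0.36 for Rplp1. Single libraries moved the last 3: Rplp0 ran from -1.10 (without AG_3) to -0.55 (without AG_1), Rplp2 from 0.11 (without MG_4) to 0.67 (without AG_3) and Rplp1 from 0.07 (without AG_2) to 0.67 (without AG_6). The summed level of the 4 was 208 to 360 CPM in AG, 249 to 422 in MG and 139 to 712 in GC.

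Rplp0 was at 11.5 to 122 CPM in AG (median 65.2), at 22.8 to 64.9 in MG (median 29.9) and at 102, 29.7, 68.3, 80.3 and 20.9 in GC. Rplp1 was at 4.52 to 131, at 51.9 to 138 and at 7.30, 37.1, 74.5, 100.3 and 37.6 CPM in the same order. Rplp2, which holds a snoRNA gene, was at 15.6 to 138, 28.8 to 154 and 21.9, 126, 168, 331 and 66.8 CPM. The 3 groups overlapped in all 3 genes. Rpsa, a protein near the exit of the mRNA channel that is also known as the laminin receptor, was at 31.3 to 85.8 CPM in AG, 20.8 to 111 in MG and 36.5, 89.0, 62.1, 221 and 54.3 in GC.

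Rpl11, the partner of Rpl5, had 45 reads against the 1685 of Rpl5, and was not tested. Rps2, which with Rps3 lines the mRNA entry, had log2 fold changes of 0.42, -0.16 and -0.58, of which the latter 2 were 0.69 and 0.28 without GC_4. The 7 genes around the tunnel exit (Rpl17, Rpl19, Rpl23a, Rpl26, Rpl31, Rpl35 and Rpl39) had 280 reads in all, with 110 of them in Rpl39, and none reached the filter. A list of 12 of the genes mutated in Diamond-Blackfan anaemia, an inherited failure of red cell production, had reads for every gene, 2468 in all, of which Rpl5 took 1685. Of these, Rpl5, Rps24 and Rps29 were tested, and Rpl5 met the criterion, lower in AG than in GC (5.51% of the 272 genes did).

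With the filter lowered to at least 5 reads over the libraries, 76 members were among 6270 genes tested. None of the 76 passed the adjusted threshold in any of the 3 comparisons, while 0.0957%, 0.159% and 0% of the 6270 genes did. The criterion was met by 3 members in MG against AG, all higher (9.87% of genes as higher, 13.1% in either direction), by 2 in MG against GC, both higher (9.79% and 13.6%), and by 5 in AG against GC, all lower (6.36% as lower and 12.2%). The 3 of MG against AG were Rpl7a, Rps26 and Rpl24, the 2 of MG against GC Rps16 and Rpl37, and the 5 of AG against GC Rpl5, Rps3, Rps26, Rpl23a and Rpl24. The smallest unadjusted p-values belonged to low-count genes.

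Rps26, which lies near the exit of the mRNA channel, had 55 reads. It was at 0 to 13.1 CPM in AG and at 7.60 to 62.5 CPM in MG, and stood at 51.1, 3.71, 62.1, 20.1 and 12.5 CPM in GC. Its fitted log2 fold change was 2.75 ± 0.93 (SE) for MG against AG (adjusted p = 0.340) and -2.77 ± 0.96 (SE) for AG against GC (adjusted p = 0.402).

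Rpl24, a bridge between the subunits, had 34 reads, of which AG held 1, in AG_3. It was at 0 to 40.6 CPM in MG (median 15) and at 7.30, 0, 37.3, 60.2 and 8.35 CPM in GC. The fitted log2 fold changes, which for so few reads depend on the model, were 3.18 ± 1.12 (SE) for MG against AG and -3.34 ± 1.15 (SE) for AG against GC. Both genes hold no snoRNA. Rps26 and Rpl24 reached 5 reads only through MG and GC, where they are higher, so their calls lean on that selection. The same holds for Rpl23a, which had 1 read in AG.

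Rps16 was at 0 to 39.2 CPM in AG, 16 to 105 in MG, and 0, 7.41, 18.6, 0 and 25.0 in GC, with a log2 fold change of 1.61 ± 0.81 (SE) for MG against GC (adjusted p = 0.352). Rpl37 had 6 reads in 3 libraries and none in GC, so that its fitted difference is not given. In the 2 alternatives that also tested it, Rpl37 did not meet the criterion. The 32 members with reads in every library included the 7 named genes with most reads as well as Rps6, Rps9, Rps14, Rps21, Rps28, Rpl7, Rpl23, Rpl30 and Rpl39.

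Other genes of the pathway were described in the same fit. Rack1, a ribosome-bound scaffold protein whose name escapes the rule, had 9496 reads, more than any member, with log2 fold changes of 0.85, 0.68 and -0.17 and no adjusted p under 0.05. It contains 3 snoRNA genes, at least 1 of them in an exon, so that its reads have the same limit as those of the 30 members. Without MG_6 the first 2 values were 0.04 and -0.13, and without GC_4 the third was 0.35. Of 15 translation factors and partners with TOP mRNAs, all had reads and 4 were tested. Eef1a1 and Eef2, the elongation factors, and Tpt1 met no criterion, and Pabpc1, the poly(A)-binding protein, was lower in MG than in AG by it, with -1.20 ± 0.40 (SE) and an adjusted p of 0.149 (8.46% of the 272 genes were lower by it). With library totals only its value was -0.07, and with at least 5 reads -0.95 with an unadjusted p of 0.0831, neither of which met the criterion. Of 21 genes of ribosome biogenesis, 16 had reads and 2 were tested. Ncl and Nop56, both nucleolar proteins, met no criterion in any comparison. Whether the genes of this paragraph other than Rack1 contain snoRNA genes is not given here, so their reads may have the same limit.

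Markers of the cells that could shed these RNAs were summed in the same libraries. The 16 red cell genes, all with reads, were at 10204 to 25832 CPM in AG, 2993 to 19387 in MG and 6376 to 18990 in GC, and 5 of the 10 tested met the criterion as lower in MG than in AG (8.46% of the 272 genes did). With library totals only 0 of the 10 did (0% of the 272 genes), with limma 1 did, and without AG_1 2 of the 8 then tested did. As higher in AG than in GC it was met by 2 of the 10 (6.25%), and of these Bpgm, an enzyme of red cell glycolysis, had a log2 fold change of 1.85 ± 0.46 (SE) and an adjusted p of 0.0335. With library totals only Bpgm had 0.99 and an adjusted p of 0.132, with DESeq2 an adjusted p of 0.0826, and without single libraries one of 0.0244 (without GC_4) to 0.122 (without GC_3), above 0.05 also without AG_1, AG_3, AG_4, GC_1, GC_2 or GC_5. As lower in MG than in GC it was met by Hbb-bt alone (0.735%). The 13 platelet genes, all with reads, were at 297 to 3034, 1316 to 3513 and 1495 to 4028 CPM, with 1 of 9 tested higher in MG than in AG (4.78%). The 12 leukocyte genes were at 94.8 to 297, 144 to 276 and 92.7 to 273 CPM, and of them Camp and Cd3e had no read. The 13 liver genes were at 27.4 to 3211, 38.4 to 4309 and 87.0 to 221 CPM, and the 11 skeletal muscle genes at 34.6 to 358, 40.1 to 145 and 29.2 to 145 CPM, with Mylpf at 0. Of the liver genes only Alb was tested, and it met the criterion as higher in MG than in GC, with 4.27 ± 1.46 (SE) and an adjusted p of 0.604, and in AG than in GC, with 3.43 ± 1.44 (SE) and an adjusted p of 0.366 (3.68% and 6.25% of genes). Without AG_6 the latter was -0.014, and without MG_6 the former was 1.999 and no longer met the criterion. Ribosomal proteins are made by all of these cells, and the part of each in the ribosomal protein reads was not tested.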

How the data were processed

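Plasma cfRNA of 17 mice was sequenced in libraries made with a small RNA kit. With CLC Genomics Workbench and mm10 as reference, the authors obtained the 3 deposited values of each gene: a raw read count, an RPKM value (scaled to gene length and mapped reads) and a TPM value, which did not enter the results. Strand setting, trimming and the handling of reads with several matches are not given in the sources used here, so paralogs and genes inside other genes may share reads. Members and gene lists were chosen with earlier results of these data known.

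The count model was that of edgeR 4.0.16 in R 4.3.3, with TMM scaling, filterByExpr (272 genes), all 17 libraries in one quasi-likelihood F-test with no covariate and Benjamini-Hochberg adjustment over all genes tested (biological coefficient of variation 0.574). The count test was tested on simulated data. DESeq2 1.42.0, limma 3.58.1 on log2(RPKM + 1) and log2(RPKM + 0.1), edgeR's exact test, other scalings, a filter of at least 5 reads, fits of 2 groups, a replicate block and leaving out each library were alternatives. Genes named were those kept by the filter, the 12 with the highest mean RPKM, the 3 with the smallest p per comparison at 5 reads, those with reads in all libraries, and Rplp0, Rplp1, Rplp2 and Rpsa. Some members are not reported here by name or drawn singly, but stay in counts, sums and fits. Genes and snoRNAs were located in GENCODE M21 (GRCm38), whose exon lengths gave the RPKM within 1% for 60 of the 80 members with reads. Low counts limit precision: 338 to 1739 ribosomal protein reads per library. Any 2 libraries differed by a chi-square of at least 3.90 per degree of freedom, so none was a duplicate. P-values measure the spread between mice.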

Additional observations from a re-analysis of the deposited data

Results flagged for a closer look

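A library was singled out where its gap to the nearest other library of its group, as a share of the group's range, passed Dixon's 95% limit. This was so in 9 of 51 groups examined. For independent, normally distributed values chance would give about 2.55. The groups share libraries and members, so that 9 cannot be set against 2.55. In 2 of the 9 (Rpl24 and Rpl37 in AG) only 1 library had any read, so that the limit was passed by construction.

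GC_4 was singled out in the summed level of all ribosomal protein genes, with 15942 CPM against 5876 in the next GC library, and in the sum of the snoRNA-containing members, with 14397 against 4360. It was singled out in Rps3, with 1996 CPM against 571, and in Rpl7a, with 833 against 208. Its TMM factor was 0.525, the lowest of GC, and 90.3% of its ribosomal protein reads came from snoRNA-containing members. As a share of counts outside the 4 dominant genes its sum was 4.83%, still the highest of GC but not past the limit. The part of the low factor in these values was not tested.

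MG_6 was singled out in Rpl7a, with 1388 CPM against 287 in the next MG library, and had the lowest TMM factor of MG, 0.577. MG_4 was singled out in the members without a snoRNA gene, with a sum of 2532 CPM against 1366. Rpl24 was at 5.77 CPM in AG_3 and at 0 in the other AG libraries, from 1 read. Rpl37 was at 26.1 CPM in AG_6, from 2 reads, and at 0 in the other AG libraries, and in MG_3 it was at 22.8 CPM against 8.11.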

How the results depend on the processing

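No ribosomal protein gene passed the adjusted threshold under any alternative other than library totals alone, which gave 6 for MG against AG and 2 for AG against GC. Leaving out single libraries gave 0 in each comparison. The number that met the criterion of the study moved more. For MG against AG it was 1, and 2 with relative log expression factors (14.3% of all genes met it), 16 with library totals only (48.5%), 0 without the 4 genes above 5% (11.6%), 3 with at least 5 reads (13.1%), 2 with only these groups (17.5%), 0 with the replicate block (12.9%), 3 with the exact test (2.11%), 3 and 2 with limma on log2(RPKM + 1) and log2(RPKM + 0.1) (7.35% and 7.72%), 3 with DESeq2 (0.627%), and 0 to 2 without single libraries. For MG against GC it was 1, and 2 with at least 5 reads (13.6%), 0 with the replicate block (4.41%), 0 with limma at either pseudocount (2.21% and 1.84%), 2 with DESeq2 (0.635%), and 0 to 2 without single libraries. For AG against GC it was 3, and 10 with library totals only (41.5%), 5 with at least 5 reads (12.2%), 8 and 7 with limma (18.4% and 18.01%), 5 with DESeq2 (0.786%), 4 with the exact test (2.01%), 2 without the 4 genes above 5% (11.6%), 2 with only these groups (12.3%), 2 with the replicate block (11.03%), and 1 to 4 without single libraries.

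The log2 ratio of the summed level for MG against AG was 0.44, 1.29 as a share of all counts, 0.79 as summed RPKM, and 0.13 to 0.56 without single libraries. For MG against GC it was -0.05, and -0.36 to 0.54 without single libraries. For AG against GC it was -0.49, -1.11 as a share of all counts and -0.92 as summed RPKM. It was 0.20 over members without a snoRNA gene, a split chosen after seeing the data, and -0.70 to 0.10 without single libraries. The highest values of the 2 comparisons with GC were without GC_4. The cause was not tested.

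The correlation of same-numbered libraries of different groups ranged from -0.472 to 0.593 (median 0.029, 16 pairs, against -0.017 for the other pairs). This gave no clear sign that replicate numbers pair the mice, but so wide a spread cannot exclude it. The block called 0, 0 and 2 members by the criterion. For the 28 gene and comparison pairs recomputed, 53 values lost the criterion, 25 gained it and 9 changed sign. Of the latter, Rps2 in MG against GC was 0.29 with library totals only, 0.15 with the replicate block and -0.40 to 0.69 without single libraries. Rps2 in AG against GC was -0.82 to 0.28 without single libraries. In the same way, Rack1 was -0.13 to 1.20 in MG against GC and -0.32 to 0.35 in AG against GC, and Alb was -0.014 to 3.71 in AG against GC. Rplp0 in MG against AG was 0.22 with library totals only. Fitted differences near 0 of other members were not followed. With the block, the median for MG against AG was 0.40 both in snoRNA-containing members and in the others. Members with few reads limit every single-gene statement: 16 of the 85 had under 20.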
